A study of Rattus norvegicus with 6 samples.

Results

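Linker histones bind the DNA between nucleosomes, and replacement histones stand in for the core histones that are made during DNA replication. A set of 9 gene symbols, 2 for linker histones and the rest for replacement variants and 1 clustered H2A gene, was sought by name in a table of expression values from cultured rat heart muscle cells. Of these 9 symbols, 6 had a row among the 13843 features of the table, 1 row each. They were H1f0 (linker histone H1.0), H3f3b (one of the genes for H3.3), H2afx (H2A.X), H2afy (macroH2A1), H2afz (H2A.Z) and Hist3h2a (an H2A gene). The other 3, H1fx, H2afv and H3f3a, had no row of that name and were not analysed here. All 6 rows had a mean above 1 FPKM over the libraries and entered every test.

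The cells were neonatal rat ventricular myocytes, muscle cells of the newborn rat heart grown in primary culture. RNA sequencing gave 6 libraries in 3 groups of 2, each treated for 3 days. The PE group had phenylephrine, an agonist of alpha-1 adrenergic receptors, and a control short hairpin. In the PE+TSA group, TSA was added to these. TSA commonly stands for trichostatin A, which inhibits histone deacetylases, but the labels give only the abbreviation. In the PE+TSA+shJIP1 group, phenylephrine and TSA were combined with a hairpin against JIP1, a scaffold of the JNK kinase pathway encoded by Mapk8ip1, and the labels also call this group a knockout. Phenylephrine was thus present in every group, and the hairpin only together with TSA. Nothing in the labels ties the replicates to separate cultures or animals, so the p-values below speak for the spread between these libraries, which may be technical.

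Most histone genes are switched on in S phase, when new DNA has to be packaged, and their messages end in a stem-loop and carry no poly(A) tail. Most replacement variants are transcribed through the whole cell cycle into polyadenylated messages and take the place of the S-phase histones in cells that no longer divide. The mature heart muscle cell is such a cell. H3.3 is laid down at active genes and at telomeres by the chaperones HIRA and DAXX-ATRX, H2A.Z marks promoters, H2A.X is phosphorylated around broken DNA, and macroH2A is enriched in repressed chromatin. H1.0 replaces other linker histones in differentiated cells, and it is known from other cell types as a gene that responds to deacetylase inhibitors. Whether the libraries were made from poly(A)-selected RNA is not stated in the labels or notes. Levels of S-phase histones may depend on that choice, and so may those of members such as H2afx and the clustered gene Hist3h2a.

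Promoter sequence is shown first for the 3 genes that rose together in the comparison of PE+TSA+shJIP1 with PE. Shown with them is that of H2afx, whose values were lower there, a difference that did not pass the test given below. Each line holds the 250 bases before the start of the RefSeq gene model (build GRCr8, read 5′ to 3′ on the gene's strand), and capitals mark CCAAT or its reverse complement, the box that the factor NF-Y binds in many histone promoters.
H1f0, chr7:112473030-112473279 (+ strand): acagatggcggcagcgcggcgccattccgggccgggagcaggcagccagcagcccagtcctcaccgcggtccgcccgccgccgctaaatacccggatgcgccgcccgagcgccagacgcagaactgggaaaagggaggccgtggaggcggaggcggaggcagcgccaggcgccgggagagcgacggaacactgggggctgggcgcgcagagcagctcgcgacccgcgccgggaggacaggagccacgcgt
H3f3b, chr10:101757637-101757886 (- strand): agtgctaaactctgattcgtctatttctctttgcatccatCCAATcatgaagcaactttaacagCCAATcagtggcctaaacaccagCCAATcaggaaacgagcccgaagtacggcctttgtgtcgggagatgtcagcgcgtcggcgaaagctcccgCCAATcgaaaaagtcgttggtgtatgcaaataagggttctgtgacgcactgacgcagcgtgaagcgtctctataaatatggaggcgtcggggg
Hist3h2a, chr10:44233033-44233282 (+ strand): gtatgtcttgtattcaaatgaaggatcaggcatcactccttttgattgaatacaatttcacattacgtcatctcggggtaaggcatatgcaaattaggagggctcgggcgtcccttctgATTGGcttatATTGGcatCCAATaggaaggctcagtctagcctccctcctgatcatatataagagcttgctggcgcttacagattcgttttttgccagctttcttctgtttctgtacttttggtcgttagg
H2afx, chr8:53568468-53568717 (+ strand): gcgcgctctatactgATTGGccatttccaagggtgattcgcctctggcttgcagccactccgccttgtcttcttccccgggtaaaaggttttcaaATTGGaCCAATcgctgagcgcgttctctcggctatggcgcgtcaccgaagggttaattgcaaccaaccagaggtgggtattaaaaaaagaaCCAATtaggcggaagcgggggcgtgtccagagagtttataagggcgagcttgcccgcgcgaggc

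On both strands together, CCAAT occurred 4 times in the H3f3b window, 4 times in that of H2afx, and 3 times each in those of Hist3h2a and H2afz. The windows of H1f0 and H2afy held no such match. Among 33469 promoter windows of the same 250 bases, 34% held CCAAT at least once, 2.52% at least 3 times and 0.565% at least 4 times. The letters TATAA, also counted on both strands, occurred at 23 bases before the start in H3f3b, at 28 and 29 bases (overlapping on opposite strands) in H2afx, and at 74 and 125 bases in Hist3h2a, where the latter shares 1 base with a CCAAT match. They were found in 24% of all windows. H1f0, with 74.8% G and C, and H2afy, with 73.6%, had the most G and C of the 6 windows, against 43.6% in Hist3h2a. A match describes the letters in this window and is no evidence of binding.

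Levels are in FPKM, fragments scaled to transcript length and library size, which allows genes to be compared within a library. The libraries differed in depth: from the whole-read steps of low values, PE replicate 2 was 20.8 times shallower than PE replicate 1, while the other 4 libraries had 0.72 to 1.34 of the depth of PE replicate 1. PE replicate 2 also listed 3667 features at 0, against 1407 to 1837 in the others. Summed FPKM ran from 401714 in PE replicate 2 to 1.07e+06 in PE+TSA+shJIP1 replicate 1, with 518592 in replicate 2 of that group. Median levels were alike, at 5.47 to 6.65 FPKM. The hairpin's target Mapk8ip1 was at 3.77 and 4.39 FPKM for PE, 14.6 and 17.9 for PE+TSA and 1.80 and 3.65 for PE+TSA+shJIP1, lowest in both hairpin libraries. Its hairpin change of -2.25 ± 0.34 (SE) on the log2 scale did not pass the test (limma adjusted p = 0.077). All 6 cardiomyocyte markers were present in every library, and their summed level was 16014 to 19615 FPKM in PE, 4501 to 8913 in PE+TSA and 4160 to 8283 for PE+TSA+shJIP1. Fibroblast markers (6 of 6 listed) summed to 1027 to 1661, 525 to 734 and 550 to 673 FPKM in these groups. Col1a1 made up most of this sum, and Thy1 ran the other way, with 3.29 and 1.56 FPKM for PE, 20.9 and 24.7 for PE+TSA and 10.9 and 17.3 with the hairpin. Smooth muscle and pericyte markers (6 of 6) summed to 1316 to 1637, 248 to 390 and 486 to 510 FPKM. Endothelial (6 of 6) and macrophage markers (5 of 6) summed to at most 37.8 and 17.6 FPKM in any library. The neural marker Tubb3 was at 5.61 and 4.49, 8.83 and 15.1, and 6.46 and 9.45 FPKM, higher in all 4 libraries with TSA than in the PE pair. None of these markers with a row was at 0 in all 6 libraries, but the endothelial Pecam1, Vwf and Tie1 were at 0 in PE replicate 2, as was the leukocyte marker Ptprc, the macrophage marker Itgam was at 0 in 3 libraries, and the pericyte marker Rgs5 in 2. The cardiomyocyte, fibroblast and smooth muscle sums were thus lower in all 4 libraries with TSA than in the PE pair, and their part in the histone values below was not tested. In bulk RNA, fewer cells of a type and less RNA per cell cannot be told apart.

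H1f0, the linker histone of differentiated cells, had the lowest values in PE, intermediate values in PE+TSA and the highest values with the hairpin. It was measured at 127 and 84.8 FPKM for PE, 278 and 360 for PE+TSA and 523 and 734 for PE+TSA+shJIP1. The 3 groups did not overlap. The PE libraries lay closer to each other than to PE+TSA, whereas the hairpin pair was further apart than its gap to PE+TSA. Group means were 106 ± 30.2 (SD, n = 2), 319 ± 57.3 and 629 ± 149 FPKM. Among all features of a library, H1f0 stood at the 94.7th to 95.8th percentile in PE and at the 99.2th to 99.4th with the hairpin.

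H3f3b, a source of the replication-independent histone H3.3, was lowest in PE, somewhat higher in PE+TSA and much higher with the hairpin. Its values were 119 and 110 FPKM for PE, 177 and 167 for PE+TSA and 522 and 632 for PE+TSA+shJIP1. Again no 2 groups overlapped. The means were 115 ± 6.81 (SD, n = 2), 172 ± 7.39 and 577 ± 78.3 FPKM, so that the step from PE+TSA to the hairpin group was far larger than the spread inside any group. H3f3a encodes the same protein, but it had no row here. The way reads with several matches were assigned is not stated in the labels or notes.

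Hist3h2a, an H2A gene of the small Hist3 cluster, was high in the hairpin libraries and at a similar lower level in the other 4. It was measured at 40.6 and 29.8 FPKM for PE, 32.5 and 27.5 for PE+TSA and 113 and 113 for PE+TSA+shJIP1. The PE and PE+TSA values overlapped, and every one of them lay below both hairpin libraries. Other H2A genes encode almost the same protein, so part of its reads may be shared with them.

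Of the 6 genes, H2afx alone had its lowest group mean with the hairpin. This gene encodes H2A.X, and its values were 115 and 49.7 FPKM for PE, 78.1 and 66.9 for PE+TSA and 29.3 and 49.3 for PE+TSA+shJIP1. The PE libraries differed by more than 2 times and enclosed those of PE+TSA, while both hairpin libraries lay below all others, by a narrow margin for replicate 2 against the shallow PE library.

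H2afz, which encodes H2A.Z, showed no order among the groups. Its values were 43.3 and 17.6 FPKM for PE, 22.7 and 32.1 for PE+TSA and 27.7 and 36.0 for PE+TSA+shJIP1. The PE pair spanned all the rest. RefSeq names 2 pseudogenes of H2afz, and how reads with several matches were assigned is not stated. H2afy, the gene for the repressive variant macroH2A1, was the member with the lowest mean. It was at 13.2 and 15.8 FPKM for PE, 17.5 and 23.8 for PE+TSA and 21.3 and 36.5 for PE+TSA+shJIP1. Its PE libraries were below the other 4, and the PE+TSA and hairpin libraries overlapped.

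**Figure D1:**
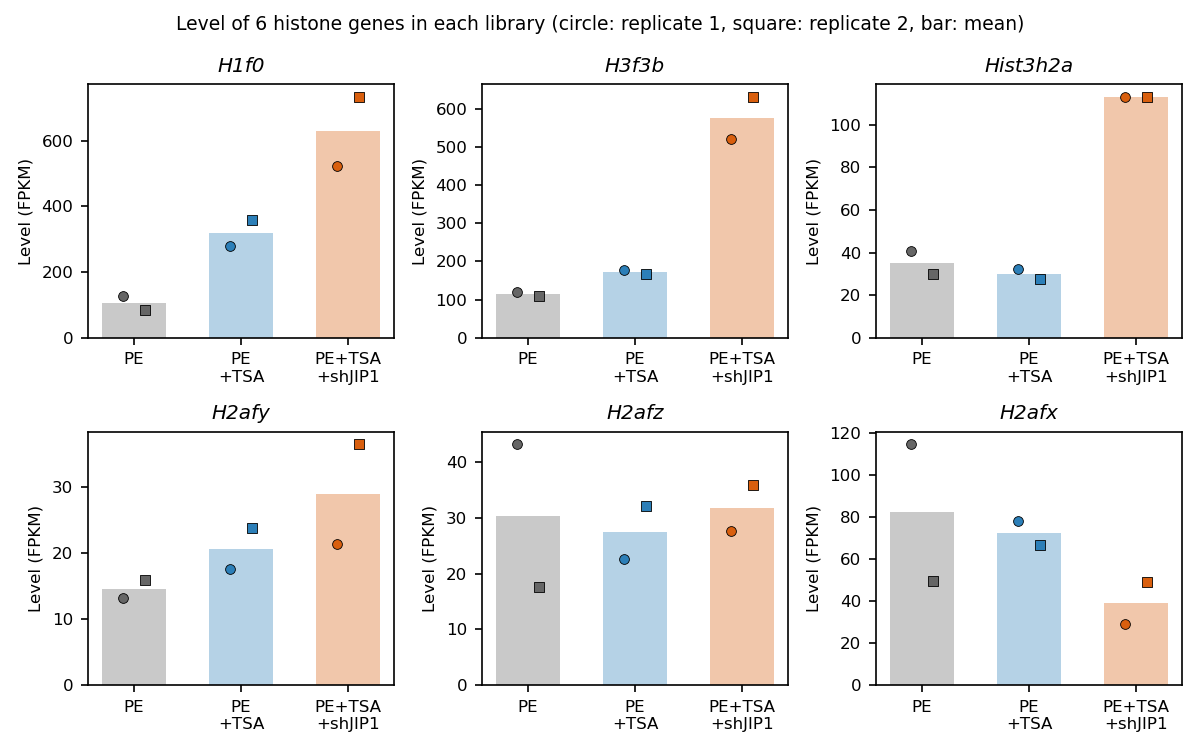
Level of H1f0, H3f3b, Hist3h2a, H2afy, H2afz and H2afx in FPKM (vertical axis, linear and from 0) in the groups PE, PE+TSA and PE+TSA+shJIP1. Each point is a library and each bar the mean of 2, and the hairpin libraries of H1f0, H3f3b and Hist3h2a lie above all others while those of H2afx lie below.

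The balance between the genes can be read within a library, where a scale factor cancels. H1f0 and H3f3b together were the larger part of the summed FPKM of the 6 genes in every library. The share of H1f0 was 27.8% and 27.6% for PE, 45.9% and 53.1% for PE+TSA and 42.3% and 45.8% with the hairpin, so it was higher in the 4 libraries with TSA. H3f3b had 26.0% and 35.7%, 29.2% and 24.7%, and 42.2% and 39.5%. H2afx had 25.1% and 16.2% for PE, 12.9% and 9.89% for PE+TSA and 2.37% and 3.08% with the hairpin, without overlap between groups. The summed level itself was 459 and 308 FPKM for PE, 607 and 677 for PE+TSA and 1237 and 1601 for PE+TSA+shJIP1, so a lower share does not by itself mean a lower level.

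**Figure D2:**
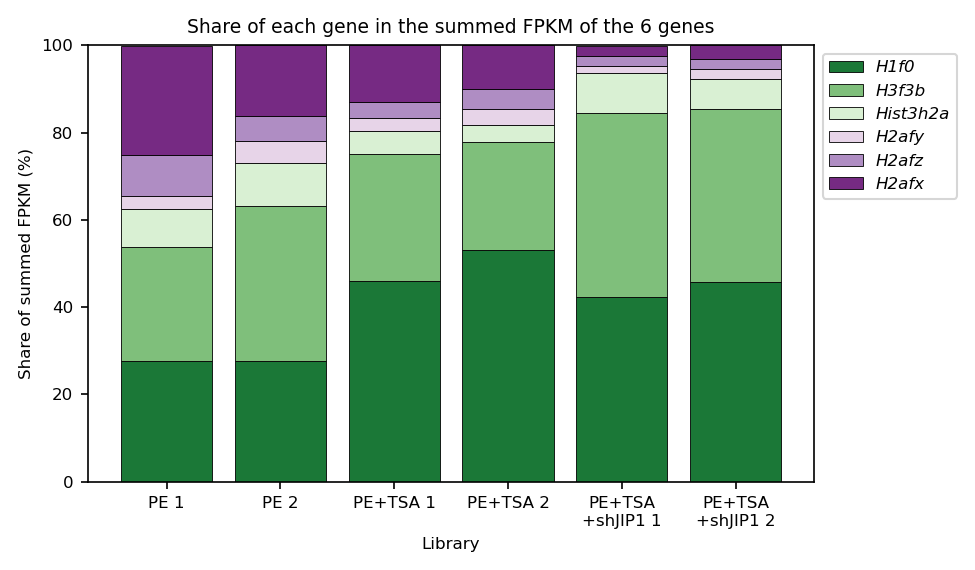
Share of each of the 6 genes in their summed FPKM (vertical axis, percent), with 1 bar for each library. The H1f0 share is 27.6% to 27.8% in PE and 42.3% to 53.1% in the libraries with TSA, and the H2afx share is 2.37% to 3.08% with the hairpin.

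The first comparison asks what TSA did to these genes in phenylephrine-treated cells. None of the 6 passed the threshold, an adjusted p of 0.05 in limma's test over 10359 features, where 0.811% of all features passed. H1f0 came nearest, with a log2 change of 1.60 ± 0.30 (SE), or 3.02-fold on the log2(FPKM + 1) scale (unadjusted p = 0.00154, adjusted p = 0.0839). H3f3b differed by 0.58 ± 0.20 (adjusted p = 0.202). These 2 of 6 had an unadjusted p under 0.05, against 18.7% of all features. H2afy differed by 0.47 ± 0.32 (adjusted p = 0.46), and its log2 change was 0.25 without PE+TSA replicate 2. The groups of these 3 genes did not overlap (3 of 6 members, against 50.6% of all features). For H2afx, H2afz and Hist3h2a the differences were -0.07 ± 0.44, -0.03 ± 0.43 and -0.21 ± 0.22. The 95% intervals were -1.12 to 0.99 for H2afx, -1.09 to 1.02 for H2afz and -0.75 to 0.33 for Hist3h2a, so that the first and second each allow a halving. The median of the 6 was 0.22, beside 0.10 over all features tested. Without PE replicate 1 it was 0.56, and the differences of H2afx and H2afz were then 0.53 and 0.59. Without PE replicate 2, the shallow library, the median was 0.05 and these differences were both -0.66.

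Adding the hairpin against JIP1 was compared next, where phenylephrine and TSA were both present (PE+TSA+shJIP1 against PE+TSA, which shares the PE+TSA libraries with the TSA comparison). H3f3b and Hist3h2a rose. The log2 change of H3f3b was 1.73 ± 0.20 (SE), or 3.32-fold (limma adjusted p = 0.0448), with a 95% interval from 1.25 to 2.22. Hist3h2a changed by 1.88 ± 0.22, or 3.69-fold (adjusted p = 0.0458), with an interval from 1.34 to 2.43. These changes ranked at the 99.0th and 99.2th percentile of all features, and 2 of 6 members passed where 0.290% of all features did. H1f0 differed by 0.97 ± 0.30 (unadjusted p = 0.0168, adjusted p = 0.224), H2afx by -0.91 ± 0.44 (adjusted p = 0.403), H2afy by 0.43 ± 0.32 (0.583) and H2afz by 0.22 ± 0.43 (0.863). Without PE+TSA+shJIP1 replicate 1 the differences of H2afx and H2afy were -0.54 and 0.81, and without replicate 2 of that group they were -1.27 and 0.06. That of H2afz was -0.02 without PE+TSA replicate 1 and 0.46 without replicate 2. The unadjusted p was under 0.05 for 3 of 6, against 14.9% of all features, and groups did not overlap for 4 of 6 (H1f0, H3f3b and Hist3h2a higher, H2afx lower), against 50.0%. The median of the 6 was 0.70, and that of all features 0.00 to 2 decimals. Without PE+TSA+shJIP1 replicate 2 the members' median was 0.39. Both calls stood close to the threshold: each was kept in 5 of 15 alternative analyses. Leaving out any 1 of the 6 libraries also ended both calls (adjusted p from 0.0728 to 0.297), while the changes stayed between 1.59 and 1.87 for H3f3b and between 1.77 and 2.0 for Hist3h2a.

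The third comparison sets both interventions together against phenylephrine alone, and shares its libraries with both comparisons before it. H1f0, H3f3b and Hist3h2a rose. H1f0 changed by 2.56 ± 0.30 (SE), or 5.91-fold (limma adjusted p = 0.0143), H3f3b by 2.32 ± 0.20, or 4.98-fold (adjusted p = 0.0108), and Hist3h2a by 1.67 ± 0.22, or 3.19-fold (adjusted p = 0.0173). Thus 3 of 6 members passed, where 8.27% of all features did. H2afy differed by 0.90 ± 0.32 (unadjusted p = 0.0286, adjusted p = 0.12), H2afx by -0.97 ± 0.44 (adjusted p = 0.189) and H2afz by 0.18 ± 0.43 (adjusted p = 0.801). Without PE replicate 1 the differences of H2afx and H2afz were -0.38 and 0.81, and without PE replicate 2 they were -1.57 and -0.44. That of H2afy was 0.53 without PE+TSA+shJIP1 replicate 2. An unadjusted p under 0.05 was found for 4 of 6, against 30.7% of all features, and groups did not overlap for 5 of 6, against 60.6%. The median of the 6 was 1.29, beside 0.10 over all features. The 3 calls were kept in 9 of 15 alternative analyses, among them the one without PE replicate 1, and were lost without any of the other 5 libraries, when none passed (adjusted p from 0.0513 to 0.135).

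**Figure D3:**
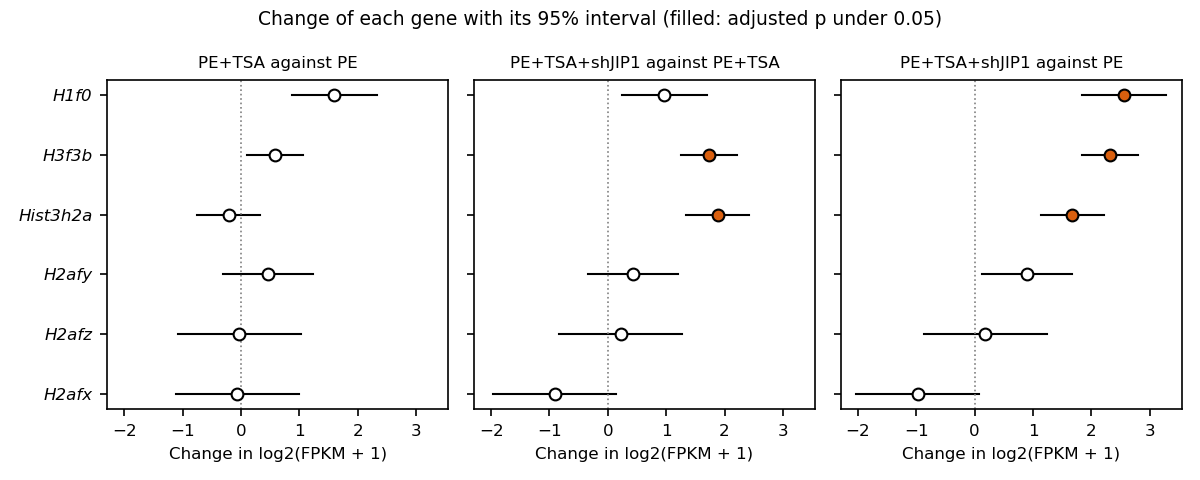
Change in log2(FPKM + 1) (horizontal axis) of the 6 genes in the 3 comparisons, with 95% intervals from limma. Filled points have an adjusted p under 0.05, which holds for H3f3b and Hist3h2a with the hairpin and for these and H1f0 in PE+TSA+shJIP1 against PE.

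Other histone genes, most of them replication-dependent, were seen in both directions. Of 27 other histone rows, 23 were tested. None passed with TSA (1 higher and 1 lower at an unadjusted p under 0.05, where 18.7% of all features were, smallest adjusted p = 0.125) or with the hairpin (4 higher and 3 lower, against 14.9% of all features, smallest adjusted p = 0.141). Against PE, 2 rose and 1 fell with both interventions, 3 of 23 beside 8.27% of all features. Hist2h3c2, an H3 gene of the second cluster, rose from 11.7 and 4.30 FPKM (PE) to 41.3 and 81.6 (PE+TSA+shJIP1), with PE+TSA at 13.5 and 6.67 (adjusted p = 0.0359). Hist1h2bh, an H2B gene, rose between the same groups from 127 and 119 to 246 and 209 FPKM (PE+TSA 137 and 129, adjusted p = 0.044). Hist1h2bd, another H2B gene, fell from 11.8 and 9.82 FPKM to 1.05 and 0 (PE+TSA 2.47 and 0.276, adjusted p = 0.0369). The 3 genes thus include 2 of the same histone type with opposite directions. The median change of the 23 was 0 with TSA, -0.36 with the hairpin and 0.48 against PE.

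The linker histones can be set against each other. Hist1h1d, an S-phase linker histone gene, was at 303 and 215 FPKM for PE, 367 and 267 for PE+TSA and 219 and 212 with the hairpin (adjusted p = 0.412 for the hairpin). Hist1h1b, another one, was at 70.5 and 41.4, 44.3 and 22.9, and 29.7 and 20.3 FPKM. The ratio of H1f0 to Hist1h1d within a library was 0.421 and 0.395 for PE, 0.759 and 1.35 for PE+TSA and 2.39 and 3.46 for PE+TSA+shJIP1. In FPKM, H1f0 was therefore below Hist1h1d in both PE libraries and above it in both hairpin libraries. The groups did not overlap, and an exact permutation test of 2 against 2 (two-sided, p = 0.333 in each comparison, 0.429 adjusted over 9 such tests) cannot give a smaller p. The 2 other ratios tested with it overlapped in places. H1f0 to H3f3b was 1.07 and 0.772 for PE, 1.57 and 2.15 for PE+TSA and 1.003 and 1.16 with the hairpin, so PE and the hairpin group overlapped (exact permutation p = 0.667). H2afz to H2afx was 0.377 and 0.353, 0.291 and 0.480, and 0.947 and 0.729, where PE and PE+TSA overlapped (exact permutation p = 1) and both hairpin libraries were highest. These ratios, Hist1h1d and Hist1h1b were chosen after the values were seen. Levels of S-phase genes such as Hist1h1d may depend on the RNA selection, which is not stated. Which linker histone message was more abundant in the cells therefore cannot be read from these FPKM.

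Hist3h2a has 3 histone neighbours in the RefSeq gene order, Hist3h2ba and Hist3h2bb (H2B genes) and Hist3h3 (an H3 gene), and they are described here because their values were seen to be high where those of Hist3h2a were. Hist3h2ba was at 4.34 and 12.3 FPKM for PE, 6.93 and 2.43 for PE+TSA and 11.8 and 28.0 with the hairpin. Hist3h2bb was at 0.309 and 0, 0.578 and 0.995, and 2.06 and 3.65 FPKM. Hist3h3 was listed at 0 in 3 libraries (the PE pair and PE+TSA replicate 1), at 1.43 in PE+TSA replicate 2, and at 2.70 and 13.6 with the hairpin. In each of the 3 genes both hairpin libraries were above both PE+TSA libraries. These 2 groups did not overlap, in either direction, for 50.0% of all features. The hairpin libraries were also above both PE libraries for Hist3h2bb and Hist3h3, where groups did not overlap for 60.6% of all features. For Hist3h2ba they overlapped with PE, with 12.3 FPKM in PE replicate 2 and 11.8 in hairpin replicate 1. None passed over all features for the hairpin (adjusted p = 0.258, 0.342 and 0.256), and their levels were far below those of Hist3h2a.

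Chaperones load these histones into chromatin. Of 33 chaperone and exchange complex rows tested, 2 of them for Chaf1b, none passed with TSA or with the hairpin. At an unadjusted p under 0.05, 3 were lower with TSA, against 18.7% of all features. With the hairpin 1 was higher and 2 were lower, against 14.9%. Against PE 3 fell and none rose, and 3 of 33 is near the 8.27% of all features. Asf1b, which hands H3-H4 to the assembly factors and is known as its proliferation-linked form, fell from 11.7 and 10.1 FPKM (PE) to 2.36 and 2.28 (PE+TSA+shJIP1), with PE+TSA at 5.27 and 2.81 (adjusted p = 0.0319). Hjurp, the chaperone of the centromeric H3 variant, fell between the same groups from 12.7 and 6.42 to 1.45 and 0.790 FPKM (adjusted p = 0.0418). Ptma, prothymosin alpha, which binds linker histone H1, fell between the same groups from 36.6 and 45.6 to 14.4 and 12.3 FPKM (PE+TSA 38.6 and 25.6, adjusted p = 0.0277). Ubn2, a subunit of the HIRA complex that deposits H3.3, had 16.1 and 14.8 FPKM for PE+TSA against 30.9 and 25.4 with the hairpin (adjusted p = 0.175), and Cabin1, another, had 17.0 and 9.97 against 6.77 and 7.97 (adjusted p = 0.325). The list's median change was -0.16, -0.08 and -0.24 in the 3 comparisons.

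None of the 13 rows of genes that process histone messages, 2 of them for Cpsf2, passed in any comparison. An unadjusted p under 0.05 was found for 1, 0 and 2 rows, against 18.7%, 14.9% and 30.7% of all features. Sympk, a scaffold of the 3′ end cleavage machinery, was at 13.99 and 14.04 FPKM for PE, 21.1 and 28.7 for PE+TSA and 26.3 and 30.7 with the hairpin (adjusted p = 0.0564 against PE). Slbp, the protein that binds the histone stem-loop, was at 16.4 and 9.69, 15.0 and 9.77, and 10.5 and 5.34 FPKM (adjusted p = 0.541 for the hairpin). Npat, the coactivator of S-phase histone genes, was at 15.8 and 11.2, 15.9 and 17.4, and 22.9 and 20.1 FPKM (adjusted p = 0.142 against PE).

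Most proliferation markers were lower beside these histone values. Of 32 tested, 30 were lower with TSA (median -1.0), 27 with the hairpin (median -0.55) and all 32 in PE+TSA+shJIP1 against PE (median -1.77), beside medians of 0.10, 0.00 and 0.10 over all features. By the adjusted test, none passed with TSA (16 lower and 1 higher at an unadjusted p under 0.05, against 18.7% of all features), none with the hairpin (4 lower, against 14.9%), and 7 of 32 fell against PE, where 8.27% of all features passed. Tpx2, a spindle assembly factor, fell from 19.4 and 13.6 FPKM (PE) to 1.01 and 1.62 (PE+TSA+shJIP1), with PE+TSA at 7.32 and 4.33 (adjusted p = 0.0157). Thymidine kinase Tk1 fell between the same groups from 14.5 and 13.6 to 1.31 and 2.39 FPKM (adjusted p = 0.0184), and Prc1, which bundles the central spindle, from 56.4 and 23.3 to 2.55 and 3.78 FPKM (adjusted p = 0.0194). The mitotic kinase gene Cdk1 went another way with TSA: it had 77.7 and 3.56 FPKM for PE, 183 and 296 for PE+TSA and 3.41 and 0 with the hairpin (adjusted p = 0.111 for the hairpin). Its PE libraries were far apart, and both PE+TSA libraries were above all others. The part of proliferation in the H2afx or Hist1h2bd values was not tested.

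**Figure D4:**
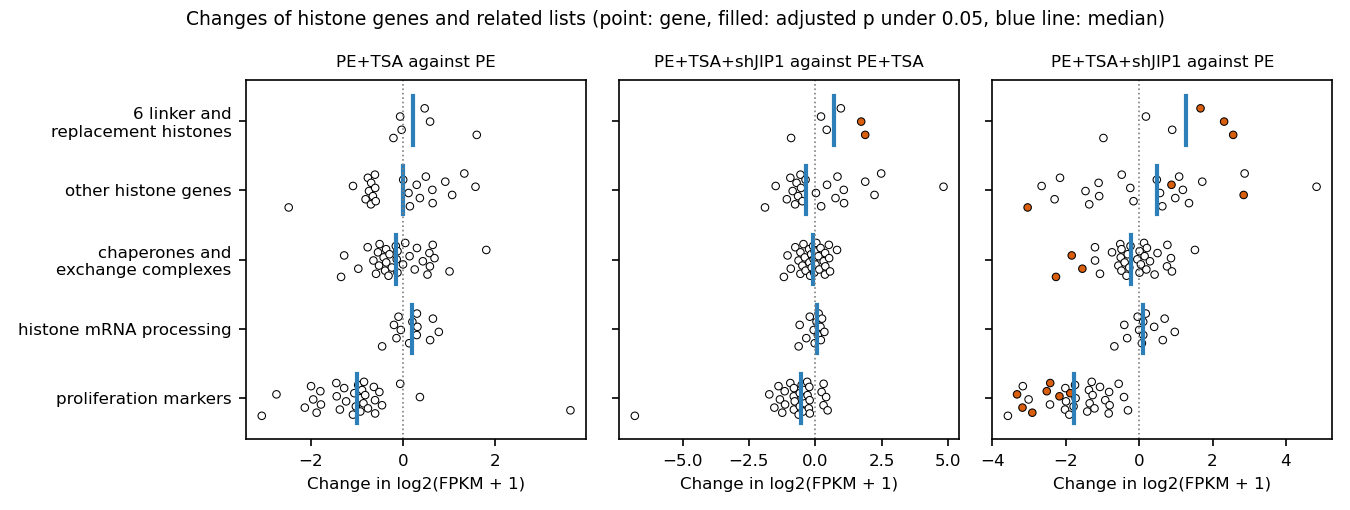
Change in log2(FPKM + 1) (horizontal axis) of every tested row of 5 sets in the 3 comparisons, with the median as a blue line. The set labelled as 6 linker and replacement histones holds the 6 members, with the clustered H2A gene Hist3h2a among them. Its medians are 0.22, 0.70 and 1.29, and those of the proliferation markers -1.0, -0.55 and -1.77. Filled points passed the adjusted test, and each panel has its own axis range.

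The genes most like H1f0 and H2afz over the 6 libraries were sought among 7785 other features averaging 5 FPKM or more, by Pearson's r of log2(FPKM + 1), as a description. For H1f0 they were Pycr1, an enzyme of proline synthesis (r = 0.997), Fam173b (r = 0.996) and Gstp1, a glutathione transferase (r = 0.996). Gstp1 was at 130 and 92.9 FPKM for PE, 416 and 539 for PE+TSA and 844 and 1102 with the hairpin, the same order of libraries as H1f0. For H2afz they were Kdm3a, a histone H3 lysine 9 demethylase (r = 0.988), the co-chaperone gene Ptges3 (r = 0.980) and Rbm18 (r = 0.980). Kdm3a was at 11.0 and 6.62 FPKM for PE, 7.59 and 9.03 for PE+TSA and 8.31 and 9.18 with the hairpin, with its highest and lowest value in the PE pair as for H2afz. Each r rests on 6 libraries of unequal depth.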

How the data were processed

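The authors deposited 1 table of FPKM values, with a column for each library. Its header names no unit. Cufflinks and the build rn6 stand in the submitters' processing notes, without version or role; the aligner, annotation, strand and treatment of reads with several matches are not stated there or in the labels. Absolute depth is unknown, so counting intervals were not computed; relative depth came from ratios of low values, and for PE replicate 2 from 8 features at 1 ratio.

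Each row was kept. A linear model with a mean for each group was fitted to log2(FPKM + 1) of all 6 libraries in limma 3.58.1 (R 4.3.3), with a prior variance following the mean, for the 10359 features averaging 1 FPKM or more. Tests were two-sided, with Benjamini-Hochberg adjustment in each comparison and a threshold of 0.05. The script was tested on simulated data. Alternatives were 3 scalings, a pseudocount of 0.1, no filter or one of 5 FPKM, a constant prior variance, fits of 2 groups, a replicate block and leaving out each library.

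The members and gene lists were chosen with earlier results of these data known. Named were every member, Mapk8ip1, up to 3 genes of each list with the smallest p in a comparison, and the 3 features most like H1f0 and H2afz. Planned ratios of H3f3b to H3f3a, H2afz to H2afv and H1f0 to H1fx could not be formed, since the second genes had no row. All 6 members were matched to RefSeq (GRCr8), H1f0 and H3f3b by current symbol and the other 4 through synonyms. A further marker list is not reported here.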

Additional observations from a re-analysis of the deposited data

How the results depend on the processing

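No member passed with TSA in any of the 15 alternatives. The 2 members that passed with the hairpin became 0 with no filter, a constant prior variance, only the 2 groups compared, the replicate block, and without any 1 library (0 in each). The 3 that passed against PE became 0 with only the 2 groups compared, and were 0 to 3 when 1 library was left out. Leaving out a library leaves fewer residual degrees of freedom by construction, and a group of 1 is then assumed to vary like the others.

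Over all features, 84, 30 and 857 were called for TSA, hairpin and both. With no filter, 14 and 1 were called for TSA and hairpin. A constant prior variance gave 36 and 2, only the 2 groups compared 5, 8 and 4 (the last for both), and the replicate block 28 and 18. With the block, the hairpin change had a limma adjusted p of 0.0693 for H3f3b and 0.0636 for Hist3h2a. Leaving out 1 library gave 6 to 203 (TSA), 7 to 16 (hairpin) and 4 to 941 (both), the highest for TSA and both without PE replicate 1. With trimmed-mean scaling 21 of 40 hairpin calls were up, against 19 of 30. The median change of all features with TSA was 0.10 as deposited and -0.02 with quantile normalization.

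Without 1 library, the members' median with TSA was 0.048 to 0.562, H2afx with TSA -0.663 to 0.531, H2afz -0.662 to 0.594 and Hist3h2a -0.427 to 0.0047. H2afz was -0.0224 to 0.46 with the hairpin and -0.443 to 0.813 for both. H2afy was 0.0606 to 0.809 with the hairpin, H2afx -1.27 to -0.543 with the hairpin and -1.57 to -0.378 for both, and the members' median with the hairpin 0.392 to 1.01. No other member reversed in any of the 15. The cause of these shifts was not tested. Replicates that share a number deviated together at r = 0.0735, 0.0396 and 0.122 across features. These r cannot show whether the libraries were paired. The main fit had no block because the labels do not say that the numbers mark a batch.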

Other observations

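Hist1h4m and H2afy2 were chosen after their values were seen. Hist1h4m, an H4 gene outside the 6 members, was listed at 0 in 5 libraries and at 816 FPKM in PE+TSA+shJIP1 replicate 2. H2afy2, the gene for macroH2A2, was at 4.50 FPKM in PE replicate 1 and in effect 0 in replicate 2, while PE+TSA had 11.3 and 2.94 and the hairpin group 4.20 and 1.54 FPKM, so its groups overlapped throughout. Cenpa, the centromeric H3 variant that Hjurp loads, was at 7.34 and 3.19 FPKM for PE, 2.58 and 1.16 for PE+TSA and 0.586 and 0.107 with the hairpin.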
